A study of Mus musculus with 18 samples.

Results

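The genes described here are the protein-coding mouse genes named Zfp plus a number that lie on chromosomes 7 and 13, which carry several dense arrays of zinc finger genes. The RefSeq table of mm10 (GRCm38.p6) held 122 of them among 21883 coding genes, 90 on chromosome 7 and 32 on chromosome 13. They were chosen by name and position, not by any measured value. H3K4me3, a histone mark concentrated at the starts of active and poised genes, was mapped with CUT&RUN, where a nuclease is tethered to chromatin through an antibody (here Cell Signaling Technology 2729). The nuclei came from prospermatogonia of stage E17.5, fetal male germ cells that have stopped dividing, collected as Oct4-GFP+ cells and frozen before 4000 nuclei went into each library. KO cells were Tet1-/-, HxD cells were Tet1HxD/HxD, an allele known to lack the catalytic activity of TET1, and WT cells were Tet1+/+, with 3 biological replicates each. Every sample carried the same batch label and the Oct4-GFP reporter. The 9 IgG samples were not analysed here.

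Most genes named Zfp plus a number encode C2H2 zinc finger proteins, and many of those in the arrays of chromosomes 7 and 13 also carry a KRAB domain. KRAB zinc finger proteins bind DNA, often within transposons, and recruit TRIM28, which brings the H3K9 methyltransferase SETDB1 to the site. The arrays grew by repeated duplication, and neighbouring genes can therefore have similar promoters. TET1 oxidises 5-methylcytosine and also binds chromatin partners without using that activity.

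The deposited peak lists held 69901 to 80232 peaks on the autosomes, X and Y in KO libraries, 49624 to 67925 in HxD libraries and 83586 to 128701 in WT libraries, covering 50.5 to 73.0 Mb, 45.6 to 69.3 Mb and 76.6 to 108.9 Mb. Read depth is unknown, since the lists give no counts. For each gene, the gene end with more peak coverage over the 9 libraries was taken as its marked end. A gene was called marked in a library when at least 1 bp of peak lay within 1 kb of that end, and its breadth was the number of bp covered by peaks within 5 kb on either side. Tet1 itself was marked in 9 of 9 libraries, with a breadth of 2732, 3331 and 4851 bp in KO libraries, 3495, 3260 and 2580 bp in HxD libraries and 2570, 2415 and 3315 bp in WT libraries, and a peak at its promoter does not check the alleles. Among markers fixed for the germ cells, 9 of 10 passed the filter on marking and 6 were marked in all 9 libraries, with Piwil2 at 0. Their summed breadth was 16.98 to 25.9 kb in KO libraries, 12.3 to 21.1 kb in HxD libraries and 13.4 to 17.1 kb in WT libraries. Sertoli cell markers, of which 6 of 8 were marked in all 9 libraries, summed to 17.2 to 25.2 kb in KO, 15.4 to 24.5 kb in HxD and 23.9 to 28.5 kb in WT libraries. Leydig and interstitial markers summed to 9.71 to 18.2 kb in KO, 13.03 to 17.8 kb in HxD and 16.5 to 24.5 kb in WT libraries, with 3 of 8, Star, Hsd3b1 and Cyp17a1, marked in none. Endothelial and blood markers summed to 6.93 to 13.3 kb, 9.98 to 13.4 kb and 12.6 to 17.1 kb in KO, HxD and WT libraries, with Ptprc at 0. A mark at the gene of another cell type can also be present in the germ cells themselves, and a difference in cell makeup cannot be told apart from a difference per cell in these lists.

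The sequences that precede the annotated starts show the range of promoters among these genes. RefSeq gives such a sequence for 109 of the 122, and the 250 bases before the start are printed 5′ to 3′ on the gene's strand, in mm10, with each CpG in capitals. Zfp36 (chr7:28379229-28379478, minus strand) had the broadest mark of all, and its promoter held 18 CpGs at 64.8% G+C. Zfp640 (chr13:66680804-66681053, minus strand) had the narrowest mark among the genes that passed the filter, and its promoter held 6 CpGs at 56.0% G+C.
Zfp36: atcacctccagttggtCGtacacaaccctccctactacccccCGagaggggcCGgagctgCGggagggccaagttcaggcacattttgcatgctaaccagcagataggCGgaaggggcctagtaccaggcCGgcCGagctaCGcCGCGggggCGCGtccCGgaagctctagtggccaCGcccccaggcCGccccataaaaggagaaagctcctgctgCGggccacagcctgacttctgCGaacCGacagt
Zfp640: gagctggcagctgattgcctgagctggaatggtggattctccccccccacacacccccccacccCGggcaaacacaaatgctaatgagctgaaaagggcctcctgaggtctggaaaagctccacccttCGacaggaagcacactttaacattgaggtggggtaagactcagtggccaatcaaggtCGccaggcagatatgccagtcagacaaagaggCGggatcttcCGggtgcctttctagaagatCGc

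Zfp457 (chr13:67306413-67306662, minus strand) and Zfp759 (chr13:67127978-67128227, plus strand) lie in the array of chromosome 13 and show what a duplicated promoter looks like there. With 20 bases as the length of a word, 13.9% of the words of each of these promoters occur in the other, and both hold the letters CCGGAA. Zfp457 was broader in every KO and HxD library than in every WT library, and Zfp759 had no mark at its gene ends but a mark at the start that this sequence precedes.
Zfp457: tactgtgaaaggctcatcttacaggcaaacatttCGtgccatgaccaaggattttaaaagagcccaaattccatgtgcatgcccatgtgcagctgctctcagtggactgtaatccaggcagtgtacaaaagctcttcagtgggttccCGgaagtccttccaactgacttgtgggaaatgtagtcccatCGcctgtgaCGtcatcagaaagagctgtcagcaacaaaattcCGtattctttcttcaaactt
Zfp759: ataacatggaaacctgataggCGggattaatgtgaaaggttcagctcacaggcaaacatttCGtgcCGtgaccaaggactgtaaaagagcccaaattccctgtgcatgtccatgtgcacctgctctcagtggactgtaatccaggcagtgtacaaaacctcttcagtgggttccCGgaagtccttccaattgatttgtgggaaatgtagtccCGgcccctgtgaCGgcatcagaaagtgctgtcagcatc

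Zfp553 (chr7:127232811-127233060, plus strand), Zfp141 (chr7:42505754-42506003, minus strand) and Zfp143 (chr7:110061452-110061701, plus strand) are the other genes with a promoter sequence whose KO and HxD breadths at the marked end both lay apart from those of WT. Their promoters held 17, 10 and 14 CpGs.
Zfp553: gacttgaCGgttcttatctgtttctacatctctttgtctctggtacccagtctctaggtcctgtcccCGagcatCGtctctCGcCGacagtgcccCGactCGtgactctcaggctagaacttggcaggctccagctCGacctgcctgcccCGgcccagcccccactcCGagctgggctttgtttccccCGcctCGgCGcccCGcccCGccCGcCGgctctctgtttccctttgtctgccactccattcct
Zfp141: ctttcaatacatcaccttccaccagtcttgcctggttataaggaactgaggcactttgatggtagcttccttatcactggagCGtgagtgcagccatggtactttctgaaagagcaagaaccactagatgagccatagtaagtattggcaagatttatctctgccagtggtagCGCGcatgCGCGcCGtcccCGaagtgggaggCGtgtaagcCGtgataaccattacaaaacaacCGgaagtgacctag
Zfp143: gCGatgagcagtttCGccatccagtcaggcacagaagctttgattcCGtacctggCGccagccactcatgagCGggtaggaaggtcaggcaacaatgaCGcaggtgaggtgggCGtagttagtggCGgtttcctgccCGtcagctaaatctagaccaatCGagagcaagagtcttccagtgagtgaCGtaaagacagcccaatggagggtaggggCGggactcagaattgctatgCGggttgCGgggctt

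H3K4me3 was found at nearly all of the 122 genes in these cells. At the marked end, 102 of them (83.6%) were marked in all 9 libraries, against 74.7% of 245 Zfp genes on other chromosomes, 52.5% of the 2729 other coding genes of chromosomes 7 and 13, and 59.6% of all coding genes. A further 13 were marked in 5 to 8 libraries, and 7 in none. None was marked in all 3 libraries of one genotype and in none of another. Over all coding genes, 0.626% were marked in every WT but no KO library and 0.0823% in every KO but no WT library. For HxD against WT these shares were 0.695% and 0.0594%, and for KO against HxD 0.0457% were marked in every HxD but no KO library and 0.119% in every KO but no HxD library.

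The 7 genes with no mark at a gene end were Zfp235, Zfp59, Zfp790, Zfp934, Zfp708, Zfp759 and Zfp595. In 5 of these, Zfp59, Zfp790, Zfp708, Zfp759 and Zfp595, the annotated start lies 2538 to 19575 bp inside the gene model from that end, and the start itself was marked in 8 or 9 libraries. Within 5 kb of the start of Zfp759, 1102, 1414 and 1722 bp were covered in KO libraries, 1772, 1113 and 1030 bp in HxD libraries and 1423, 1208 and 1369 bp in WT libraries. The genotypes overlapped there. Zfp708, which is known to bind the ends of a transposon family in mouse cells, had 1215, 1669 and 1905 bp at its start in KO, 1691, 1624 and 1392 bp in HxD and 1617, 1712 and 1557 bp in WT libraries. Zfp595 was the gene at 8 of 9, with 0 bp in HxD replicate 3 and 947 to 1825 bp elsewhere. Judged by the annotated start, 100 of the 109 genes with an entry (91.7%) were marked in all 9 libraries, against 78.1% of the 196 Zfp genes of other chromosomes with an entry and 61.1% of the 17491 coding genes. The 3 not marked at their start in any library were Zfp235, Zfp626 and Zfp541.

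**Figure D1:**
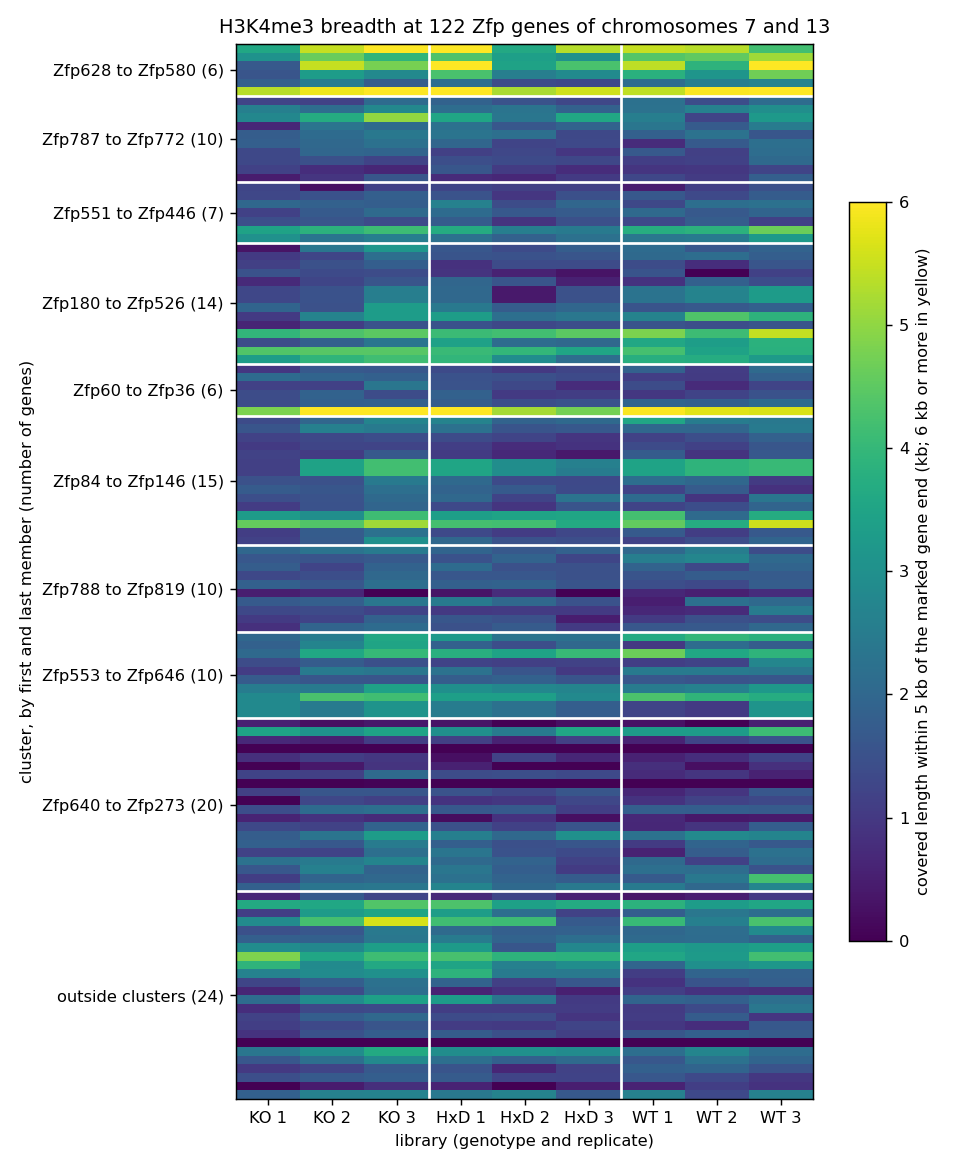
Breadth of H3K4me3 (kb covered within 5 kb of the marked gene end, colour) at each of the 122 genes (rows, in order of cluster and position) in the 3 KO, 3 HxD and 3 WT libraries (columns). The brightest rows lie in the cluster from Zfp628 to Zfp580 and at Zfp36, and dark rows include Zfp934, outside the clusters, and Zfp640, Zfp759 and Zfp595 in the chromosome 13 cluster.

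The tests used the 115 genes that were marked in at least 3 of the 9 libraries, the same filter as for the 15996 coding genes tested. The other 7 were marked in no library. Zfp446, marked in 1 KO, 1 HxD and 3 WT libraries, passed only through WT, and Zfp459, marked in 3 KO, 1 HxD and 1 WT libraries, only through KO. Breadth of the 115 had a median of 1847 bp over the 9 libraries, with quartiles of 1423 and 2514 bp, against 1902 bp with quartiles of 1410 and 2469 bp over all genes tested. Of the 115, 8 exceeded 4000 bp (6.96%), against 3.99% of all genes tested.

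The broadest marks were at Zfp36, Zfp580, Zfp628, Zfp524 and Zfp260. Zfp36 (chromosome 7, 28376784 to 28379228) encodes tristetraprolin, which binds AU-rich elements of mRNAs and promotes their decay, through CCCH zinc fingers rather than C2H2 ones. It had 4819, 7644 and 7588 bp in KO libraries, 8378, 5181 and 4746 bp in HxD libraries and 5962, 5723 and 5671 bp in WT libraries. The mutant libraries spread widely on both sides of the WT libraries, and its mean over 9 libraries, 6190 bp, stood at percentile 99.8 of all genes tested. Zfp580 had 5360, 5852 and 6338 bp in KO, 6558, 5230 and 5560 bp in HxD and 5433, 5975 and 6183 bp in WT libraries, and its marked end lies 119 bp from an end of Ccdc106. Zfp628, Zfp524 and Zfp260 averaged 5002, 4568 and 4449 bp. Neighbouring gene ends lie within these windows for Zfp524, 488 bp from Fiz1, and for Zfp628 and Zfp260 at 3003 and 4272 bp. Part of their breadth can therefore belong to another gene. The marked ends of Zfp628 and Zfp580 lie 6786 and 2191 bp from their annotated starts, at the opposite end of the gene. At those starts Zfp628 averaged 3857 bp in KO, 2770 bp in HxD and 3060 bp in WT libraries, and Zfp580 averaged 4225, 4278 and 4328 bp.

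The narrowest marks were at Zfp640, Zfp458, Zfp936, Zfp366 and Zfp459. Zfp640 had 541, 248 and 384 bp in KO, 309, 0 and 246 bp in HxD and 304, 0 and 529 bp in WT libraries. Its promoter shares 55.4% of its 20-base words with that of Gm17353, so reads from these copies could be hard to place. Zfp366, also known as DC-SCRIPT and best known in dendritic cells, had 0, 468 and 802 bp in KO, 593, 0 and 509 bp in HxD and 606, 1102 and 869 bp in WT libraries. Its HxD libraries all lay below its WT libraries. For Zfp458, Zfp936 and Zfp459 the marked end lay 9504 to 63424 bp from the annotated start. At the start, Zfp458 averaged 1740 ± 640 bp in KO, 1320 ± 361 bp in HxD and 1761 ± 196 bp in WT libraries (SD, n = 3 each).

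Zfp296, Zfp710, Zfp592, Zfp629, Zfp131, Zfp110, Zfp369 and Zfp346 were marked in all 9 libraries. Zfp296, a nuclear factor of pluripotent and germ cells, had 3638, 3569 and 4372 bp in KO, 4333, 3411 and 3678 bp in HxD and 3852, 3323 and 3543 bp in WT libraries. Its genotypes overlapped. Zfp710 averaged 4175 ± 648 bp in KO, 3999 ± 213 bp in HxD and 3673 ± 468 bp in WT libraries (SD, n = 3 each, as for the genes that follow). Zfp592 averaged 3471 ± 530 bp in KO, 3016 ± 444 bp in HxD and 2710 ± 649 bp in WT libraries. For both genes the genotypes overlapped. Zfp629 averaged 3764 ± 800 bp in KO, 3203 ± 311 bp in HxD and 3979 ± 298 bp in WT libraries, and its HxD libraries all lay below its WT libraries. Zfp131, a BTB zinc finger protein, averaged 2379 ± 465 bp in KO, 2241 ± 529 bp in HxD and 2202 ± 752 bp in WT libraries. Zfp110 and Zfp369 encode partners of the p75 neurotrophin receptor, NRIF proteins of similar sequence. Zfp110 averaged 1649 ± 459 bp in KO, 1831 ± 239 bp in HxD and 1894 ± 191 bp in WT libraries. Zfp369 averaged 2211 ± 591 bp in KO, 2034 ± 182 bp in HxD and 1937 ± 306 bp in WT libraries. Neither gene separated the genotypes. Zfp346, which encodes the double-stranded RNA binding protein JAZ, averaged 1666 ± 440 bp in KO, 1228 ± 263 bp in HxD and 1253 ± 428 bp in WT libraries.

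Zfp568 encodes a KRAB protein known for silencing a placental transcript of Igf2 in the mouse. It had 1729, 1600 and 2189 bp in KO libraries, 1903, 1709 and 1353 bp in HxD libraries and 1211, 1715 and 854 bp in WT libraries. All mutant libraries lay above WT replicates 1 and 3, but WT replicate 2 lay among them, and neither the KO difference of 579 bp (SE 318, limma adjusted p = 0.424) nor the HxD difference of 395 bp (SE 318, adjusted p = 0.703) passed. Zfp30, Zfp93, Zfp112, Zfp747 and Zfp773, other zinc finger genes of the chromosome 7 arrays, averaged 1320 to 2248 bp in KO, 1174 to 2047 bp in HxD and 1441 to 2142 bp in WT libraries. Their smallest adjusted p against WT in limma was 0.495, for Zfp112 in KO, where the HxD libraries (1561, 1503 and 1584 bp) all lay below the WT libraries (2055, 2149 and 1801 bp).

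The number of the 122 genes marked was alike in the 3 genotypes. It was 107, 114 and 114 in KO libraries, 113, 110 and 111 in HxD libraries and 115, 112 and 114 in WT libraries, so the groups overlapped. Median breadth of the 115 tested genes was 1440, 1845 and 2236 bp in KO, 2029, 1594 and 1550 bp in HxD and 1845, 1833 and 2074 bp in WT libraries. All coding genes moved in the same way between libraries. As a ratio to the median of all genes tested in the same library, the median of the 115 was 0.919 ± 0.0516 in KO, 0.948 ± 0.0275 in HxD and 1.02 ± 0.0464 in WT libraries (SD, n = 3 each). The authors' fold enrichment at the strongest summit within 1 kb placed the median of these genes between percentiles 43.3 and 61.0 of all promoters with a summit in the same library.

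**Figure D2:**
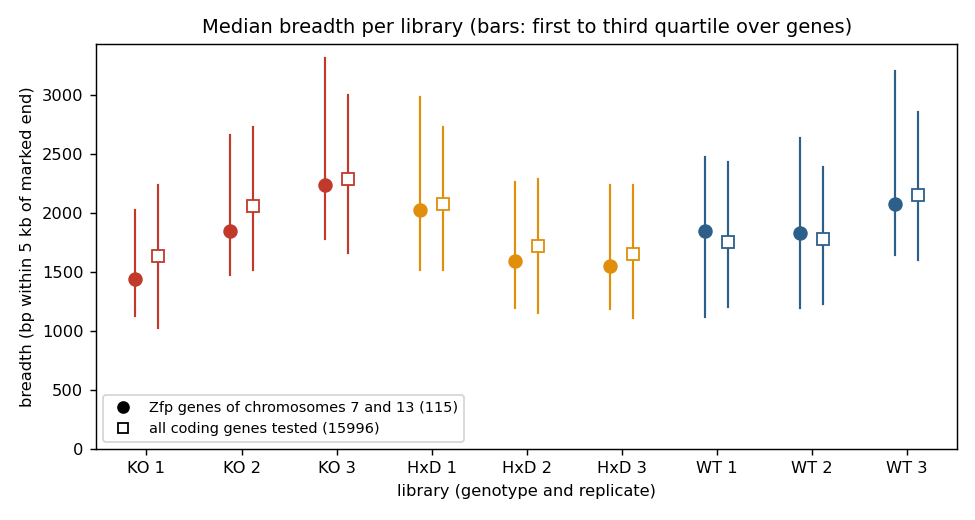
Median breadth (bp within 5 kb of the marked end) of the 115 tested Zfp genes (filled circles) and of all 15996 coding genes tested (open squares) in each KO, HxD and WT library, with bars from the first to the third quartile over genes. The medians of the Zfp genes run from 1440 bp in KO replicate 1 to 2236 bp in KO replicate 3, and follow those of all genes.

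The comparison of KO with WT asks what loss of the whole TET1 protein changes at these promoters. None of the 115 genes passed limma (adjusted p under 0.05 over 15996 genes), which called 0.00625% of all genes as having a smaller breadth and 0% a larger one. At an unadjusted p under 0.05, 5 were narrower and 4 broader in KO, or 4.35% and 3.48%, against 7.45% and 6.76% of all genes tested. The KO libraries all lay below the WT libraries in 3 genes and all above in 4, which is 2.61% and 3.48%, against 9.08% and 8.49% of all genes. The median difference was -5 bp over the 115 genes and 45 bp over all genes, and 59 of the 115 were below 0 and 56 above, or 51.3% and 48.7%, against 46.7% and 53.3% of all genes. With peak lists of equal length 37 were below 0 and 78 above, with a median of 308 bp, while 67.6% of all genes were above 0 with a median of 307.5 bp. These counts depended on single libraries. At an unadjusted p under 0.05 the 5 became 15 without KO replicate 3 and 2 without KO replicate 1, KO replicate 2, WT replicate 2 or WT replicate 3, and the 4 became 10, 1, 2 and 9 without KO replicate 1, KO replicate 3, WT replicate 1 and WT replicate 3. The 3 below became 8, 20, 11 and 15 without KO replicate 2, KO replicate 3, WT replicate 1 and WT replicate 2, and the 4 above became 20, 8, 8, 9 and 20 without KO replicate 1, KO replicate 2, WT replicate 1, WT replicate 2 and WT replicate 3. The median difference was -170 bp without KO replicate 3, -51.7 bp without WT replicate 2, -31.5 bp without WT replicate 1, 81.8 bp without WT replicate 3 and 163 bp without KO replicate 1. Groups of fewer libraries overlap less by construction. Of all genes, 14.9%, 15.6%, 14.3% and 16.1% then lay all below, in the order given. All above were 23.7%, 11.6%, 10.5%, 11.3% and 19.8% of all genes, in the order given. By unadjusted p, 7.70% of all genes were narrower in the fit with 15 such members. In the fits with 2 such members the share was 4.07%, 8.35%, 8.10% and 4.66%. Broader were 12.2%, 2.71%, 3.81% and 10.4% of all genes, in the order given. In the same libraries the marker lists also differed, with KO minus WT below 0 in 6 of 8 Sertoli, 4 of 5 Leydig and interstitial and 5 of 5 endothelial and blood markers tested, and above 0 in 8 of 9 germ cell markers. With peak lists of equal length these counts were 6, 4, 3 and 9. Their part in the results of the zinc finger genes was not tested. On libraries simulated for KO against WT, 200 genes with broad marks, broader than most of the 115, were narrowed. The test found 0% of losses of 500 or 1000 bp and 30.5% of those of 2000 bp. Gains, and losses at narrower genes, were not simulated, so these shares give no detection limit for most of the 115.

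Zfp575 was the member nearest to the threshold. It had 1372, 1841 and 2334 bp in KO libraries, 3426, 2120 and 2026 bp in HxD libraries and 3598, 3346 and 3828 bp in WT libraries. Every KO library lay below every WT library, and HxD replicate 1 lay among the WT libraries. The KO difference was -1742 bp (SE 432, limma adjusted p = 0.123), and with each library centred on its own mean it passed (adjusted p = 0.0126). The marked end of Zfp575 (chromosome 7, position 24587840) lies 297 bp from an end of Ethe1, so the mark there can belong to either gene.

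Zfp553 and Zfp141 were narrower in every library of both mutants than in any WT library. Zfp553 had 2009, 2518 and 3581 bp in KO, 3211, 2287 and 2233 bp in HxD and 3663, 3972 and 3818 bp in WT libraries. Its differences were -1115 bp in KO (SE 458, limma adjusted p = 0.291) and -1241 bp in HxD (adjusted p = 0.341), and within 2 kb the KO difference was 185 bp, the other way. Its marked end, at a CpG-rich promoter, lies 76 bp from an end of Septin1, so the mark there can belong to either gene. Zfp141 had 1621, 1564 and 1686 bp in KO, 1500, 1914 and 1257 bp in HxD and 2562, 2747 and 2044 bp in WT libraries. Its differences of -827 bp in KO (SE 315, adjusted p = 0.258) and -894 bp in HxD (adjusted p = 0.321) turned to 244 and 222 bp with peak lists of equal length. Because KO and HxD were set against the same WT libraries, the shared direction is not independent evidence.

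Zfp143 and Zfp457 were broader in every library of both mutants than in any WT library. Zfp143, an activator of small nuclear RNA genes and of many other promoters, had 2661, 2898 and 3004 bp in KO, 3873, 2461 and 2418 bp in HxD and 1086, 1926 and 1869 bp in WT libraries. Its differences were 1227 bp in KO (SE 427, limma adjusted p = 0.220) and 1290 bp in HxD (adjusted p = 0.296), or 812.5 bp in HxD without HxD replicate 1. Zfp457 had 1217, 1141 and 2085 bp in KO, 1401, 1453 and 1321 bp in HxD and 729, 923 and 576 bp in WT libraries. Its differences were 738 bp in KO (SE 293, adjusted p = 0.277), or 436 bp without KO replicate 3, and 649 bp in HxD (adjusted p = 0.447). No alternative setting turned the direction of either gene. Zfp953, in the same array as Zfp457, had 1147, 1612 and 1599 bp in KO, 1545, 1280 and 1607 bp in HxD and 656, 932 and 1623 bp in WT libraries, and WT replicate 3 overlapped both mutants.

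The other members with the smallest p in KO against WT overlapped between the groups. Zfp667 had 2775, 3687 and 5022 bp in KO and 2572, 1219 and 3218 bp in WT libraries (difference 1492 bp, SE 618, limma adjusted p = 0.294). Zfp771 had 1869, 2696 and 3495 bp in KO and 1007, 2117 and 1767 bp in WT libraries (difference 1056 bp, SE 424, adjusted p = 0.282), and at its annotated start, 10346 bp from that end, the difference was -171 bp. Without KO replicate 3 the differences at the marked ends were 895 bp for Zfp667 and 652 bp for Zfp771, and without WT replicate 2 that of Zfp667 was 933 bp. The marked ends lie 4334 bp from Epp13 and 2087 bp from Dctpp1. The marked end of Zfp668 lies 78 bp from an end of Zfp646. Both genes had the same values, 2842, 2466 and 3085 bp in KO and 1198, 1017 and 3099 bp in WT libraries, so they are 1 measurement. Among the narrower ones, Zfp865 had 1576, 3328 and 2815 bp in KO and 3798, 3138 and 4693 bp in WT libraries, and Zfp61 had 1013, 2693 and 3328 bp in KO and 2675, 4340 and 3890 bp in WT libraries. Their adjusted p in limma was 0.329 and 0.340, and with peak lists of equal length the difference of Zfp865 turned to 138 bp.

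**Figure D3:**
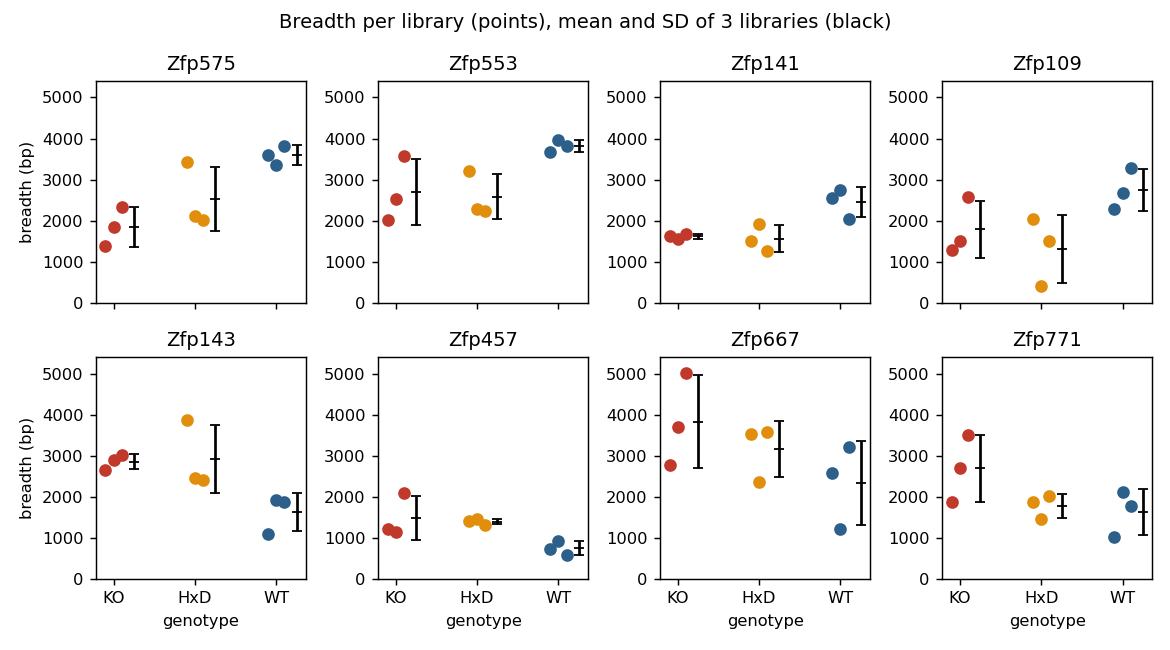
Breadth (bp within 5 kb of the marked end) of 8 genes in each KO, HxD and WT library (coloured points), with the mean and SD of the 3 libraries in black. Zfp553 and Zfp141 lie lower, and Zfp143 and Zfp457 higher, in all 6 mutant libraries than in the 3 WT libraries, and no difference in the plot passed the adjusted test.

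HxD against WT asks what loss of catalysis alone changes. None of the 115 genes passed limma, which called 0% of all genes in either direction. At an unadjusted p under 0.05, 8 were narrower and 2 broader in HxD, or 6.96% and 1.74%, against 9.04% and 1.74% of all genes tested. The HxD libraries all lay below the WT libraries in 15 of the 115 genes (13%) and all above in 3 (2.61%), against 13.3% and 3.62% of all genes. The difference was below 0 in 76 of the 115 (66.1%, against 61.1% of all genes) and above 0 in 39 (33.9%, against 38.9%). The median difference was -110 bp over the 115 genes and -125 bp over all genes. With peak lists of equal length 44 were below 0 and 71 above, while 60.3% of all genes were above 0. With each library centred on its mean 57 were below 0 and 58 above, while 51.8% of all genes were above 0. Zfp446 is among the 15. Zfp109 and Zfp108, which had the same values, are counted as separate genes in both the 8 and the 15. The 8 became 13, 1, 2 and 4 without HxD replicate 1, HxD replicate 2, HxD replicate 3 and WT replicate 3, and the 2 became 0, 1, 1, 0 and 4 without HxD replicate 1, HxD replicate 2, HxD replicate 3, WT replicate 1 and WT replicate 3. By unadjusted p, 11.5%, 4.34%, 6.22% and 5.24% of all genes were then narrower, in the order given. Broader were 0.588%, 1.01%, 2.37%, 0.838% and 4.12% of all genes. The count of 15 became 31 without HxD replicate 1, 25 without WT replicate 1 and 32 without WT replicate 2, and the 3 became 6, 7 and 17 without HxD replicate 2, HxD replicate 3 and WT replicate 3. Of all genes, 27.68%, 21.98% and 23.82% then lay all below, in the order given. All above were 6.54%, 10.13% and 13.03% of all genes, in the order given. The median difference was -296 bp without HxD replicate 1, -181 bp without WT replicate 1 and -228 bp without WT replicate 2. Of the markers tested, 8 of 8 for Sertoli cells, 4 of 5 for Leydig and interstitial cells and 4 of 5 for endothelial and blood cells were also below 0, with medians of -488, -1459 and -527 bp, and 4 of 9 for germ cells, with a median of 34.0 bp. With peak lists of equal length 7, 3, 3 and 1 of these markers were below 0. Their part in the results of the zinc finger genes was not tested.

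Zfp109 and Zfp108 face each other across 2387 bp and had the same values, so they too are 1 measurement. These were 1276, 1505 and 2578 bp in KO libraries, 2029, 407 and 1496 bp in HxD libraries and 2279, 2680 and 3293 bp in WT libraries. All HxD libraries lay below all WT libraries, while KO replicate 3 lay among the WT libraries. The marked end is 68 bp from the annotated start of Zfp108 but 14741 bp from that of Zfp109. At its own start Zfp109 had 0, 1438 and 1801 bp in KO, 1591, 1303 and 1406 bp in HxD and 1522, 1676 and 1510 bp in WT libraries, and the groups overlapped. The differences at the shared marked end were -1440 bp in HxD (SE 459, limma adjusted p = 0.280) and -964 bp in KO (adjusted p = 0.359). Zfp367 lay above WT in HxD, with 2939, 3021 and 2884 bp in HxD against 2165, 2727 and 2110 bp in WT libraries, a difference of 614 bp (SE 395, adjusted p = 0.608).

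KO against HxD asks whether the 2 mutants differ. None of the 115 genes passed limma, as none did among all genes (0% in both directions), and the smallest adjusted p among the 115 was 1. At an unadjusted p under 0.05, 0 were narrower and 3 broader in KO, or 0% and 2.61%, against 0.219% and 2.69% of all genes. The 3 became 8 without KO replicate 1, 6 without HxD replicate 1, 1 without HxD replicate 2 or WT replicate 3, and 0 without KO replicate 2, KO replicate 3 or HxD replicate 3. Of all genes 7.96%, 5.30%, 1.42%, 2.93%, 1.94%, 1.09% and 0.906% were then broader, in the order given. KO libraries all lay above HxD libraries in 10 of the 115 genes (8.70%, against 7.19% of all genes) and all below in 0 (against 0.706%). The difference was above 0 in 82 of the 115 (71.3%, against 71.7% of all genes) and below 0 in 33 (28.7%, against 28.3%). The median difference was 184 bp over the 115 genes and 167 bp over all genes. With each library centred on its mean it was above 0 in 58 of the 115. The median was then 2.17 bp over the 115 genes and -15.5 bp over all genes. The 10 became 29, 17, 24 and 14 genes without KO replicate 1, KO replicate 2, HxD replicate 1 and HxD replicate 2, and the median difference was -5 bp without KO replicate 3, 110 bp without HxD replicate 2, 111 bp without HxD replicate 3, 306 bp without HxD replicate 1 and 351 bp without KO replicate 1. The 0 all below became 11 without KO replicate 3, 1 without HxD replicate 2 and 2 without HxD replicate 3. The 2 genes with the smallest p among those broader in KO were Zfp114, with 1509, 1339 and 1393 bp in KO, 901, 578 and 316 bp in HxD and 1565, 0 and 1171 bp in WT libraries, and Zfp941. Zfp114 differed by 815 bp between KO and HxD (SE 348, limma adjusted p = 1), while its WT libraries spanned both groups. Zfp941 had 624, 1377 and 2170 bp in KO and 599, 871 and 518 bp in HxD libraries. Among those narrower in KO the smallest p were at Zfp575 and at Zfp94, which had 627, 1101 and 1509 bp in KO and 1508, 1305 and 1438 bp in HxD libraries.

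With gaps of at most 1 Mb between neighbours, 98 of the 122 genes fell into 9 clusters of at least 5 genes, 8 on chromosome 7 and 1 on chromosome 13. Averaged over the libraries of a genotype, cluster medians ran from 1441 to 3947 bp in KO and from 1373 to 4078 bp in HxD. In WT they ran from 1166 to 4674.5 bp. Most KO values lay between 1639 and 1802 bp. Whether clusters differed more than genotypes was not tested. The cluster of 6 genes from Zfp628 to Zfp580 (chromosome 7, 4915181 to 5053723) had the broadest marks, with a cluster median of 2447, 5050 and 4344 bp in KO libraries, 5163, 3416 and 3655 bp in HxD libraries and 4896, 4208 and 4920 bp in WT libraries. It spans 139 kb, its genes had a median length of 5412 bp, and a gene end of another gene lay at a median of 1186 bp from the marked end. The 4 promoters of it with a sequence had a median G+C of 63.8%. The cluster of 20 genes from Zfp640 to Zfp273 (chromosome 13, 66670274 to 67827000), in the region that also holds the regulators of sex-limited liver genes, had the narrowest. Its median was 1170, 1240 and 1913 bp in KO, 1521, 1367 and 1233 bp in HxD and 764, 1167 and 1567 bp in WT libraries, and the genotypes overlapped. Its 18 promoters with a sequence had a median G+C of 48.8%, the nearest other gene end lay at a median of 11709 bp, and 9 of them shared over 10% of 20-base words with another promoter.

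At the annotated starts the chromosome 13 cluster lay close to the cluster from Zfp551 to Zfp446. Mean breadth over 9 libraries had a median of 1474 bp over its 18 genes with an entry and of 1446 bp over 6 genes of the other. The cluster median of chromosome 13 averaged 1531 ± 380 bp in KO, 1402 ± 197 bp in HxD and 1342 ± 283 bp in WT libraries (SD, n = 3 each). That of Zfp551 to Zfp446 averaged 1471 ± 181 bp in KO, 1403 ± 275 bp in HxD and 1554 ± 67.5 bp in WT libraries, so chromosome 13 was the higher in KO and the lower in HxD and WT. At the marked ends the chromosome 13 cluster averaged 1441 ± 411 bp in KO, 1373 ± 144 bp in HxD and 1166 ± 402 bp in WT libraries. Zfp708, Zfp759 and Zfp595, marked at their starts but not at a gene end, all lie in the chromosome 13 cluster. At the annotated starts, where 106 members were tested and 0 passed limma, Zfp787 and Zfp936 also separated both mutants from WT. Zfp787 had 2664, 2809 and 3679 bp there in KO, 2777, 2186 and 2250 bp in HxD and 1840, 1703 and 1761 bp in WT libraries. Zfp936 had 1399, 1389 and 1453 bp in KO, 1463, 1079 and 1497 bp in HxD and 1728, 2458 and 2224 bp in WT libraries. At their marked ends, 24476 and 63424 bp away, the genotypes overlapped for both.

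By genotype, the cluster of 14 genes from Zfp180 to Zfp526 (chromosome 7, 24081877 to 25227876) had a median of 1276, 1505 and 2578 bp in KO, 2029, 1545 and 1675 bp in HxD and 2187, 2415 and 2596 bp in WT libraries. All 3 HxD libraries lay below the WT libraries, and KO replicate 3 lay among them. The means over libraries were 613 bp lower in KO and 650 bp lower in HxD than in WT, but with peak lists of equal length the differences were -64.2 and -107 bp. It holds Zfp575, Zfp109, Zfp108, Zfp61 and Zfp112. Zfp109 and Zfp108, which had the same values, count as separate genes in these medians. Their value is itself the cluster median in every KO library and in HxD replicate 1, so these medians rest on a single measurement. At the annotated starts of 11 of its genes the cluster averaged 1735 ± 753 bp in KO, 1689 ± 255 bp in HxD and 1912 ± 124 bp in WT libraries. In the other 7 clusters on chromosome 7, and among the 24 genes outside clusters, the libraries of the genotypes overlapped, and the KO minus WT difference of cluster medians ran from -728 bp, in the cluster from Zfp628 to Zfp580, to 127 bp, in the cluster from Zfp60 to Zfp36.

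**Figure D4:**
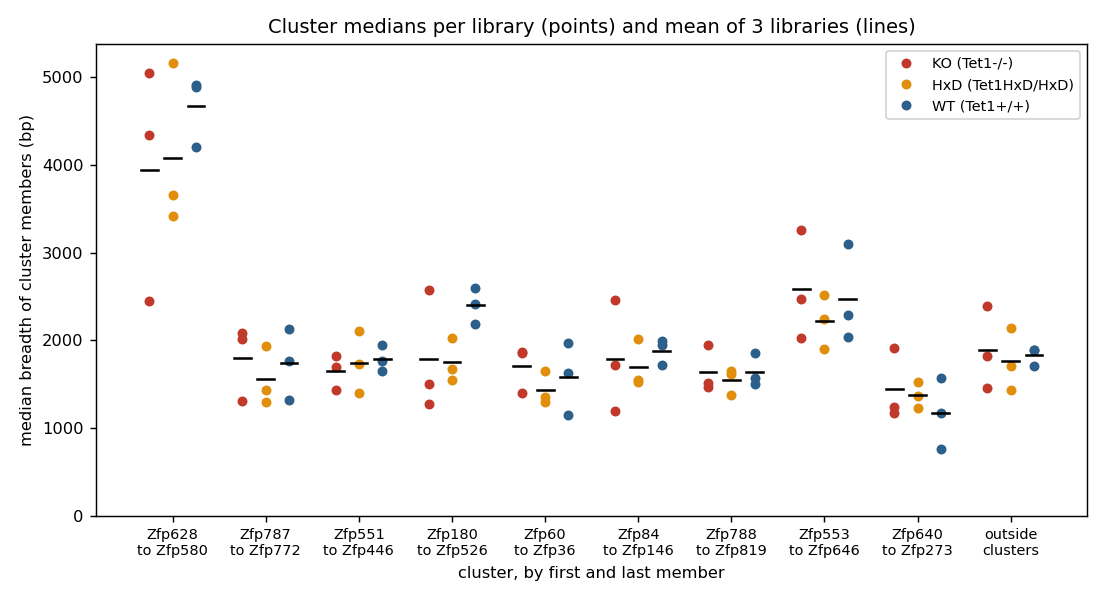
Median breadth (bp) of the members of each cluster in each KO, HxD and WT library (points), with the mean of the 3 libraries as a line. The cluster from Zfp628 to Zfp580 stands highest in all genotypes, and in the cluster from Zfp180 to Zfp526 the 3 HxD libraries (1545 to 2029 bp) lie below the 3 WT libraries (2187 to 2596 bp). The latter cluster counts Zfp109 and Zfp108, which had the same values, as separate genes.

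The promoters before the annotated starts were slightly poorer in G+C than those of coding genes at large, with a median of 52.8% in 109 members, 54.8% in 196 Zfp genes of other chromosomes and 56.0% in 17491 coding genes. Motifs were searched as exact letters on both strands of the 250 bases. CCGGAA, the core bound by ETS factors, was in 27.5% of the members' promoters, against 30.1% of the other Zfp promoters and 15.5% of all. GGGCGG, the core of SP1 sites, was in 29.4%, against 46.9% and 44.2%. CCAAT, the box bound by NF-Y, was in 42.2%, against 53.1% and 36.0%, and TATAAA in 5.505%, against 5.61% and 12.1%. TGACGT, a core of CREB and ATF sites, was in 11.0%, against 9.18% and 7.63%, and ATGGCGG, a core of YY1 sites, in 1.83%, against 6.12% and 2.64%. Related promoters share letters by descent, so these promoters are not independent, and a match describes letters only. No motif contains another. In all, 22 members shared over 10% of 20-base words with another promoter, and 4 of them over 50%.

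Breadth at the marked end varied with the base composition before the annotated start across the members about as it did across all genes. Of the 109 members with a sequence, 84 had the marked end within 1 kb of that start, so the others pair a sequence with a mark elsewhere. Over the 103 tested members with a sequence the Spearman correlation of G+C with mean breadth was 0.350, and over 12728 coding genes it was 0.354. These are correlations across genes of the same 9 libraries, and genes are not independent replicates. For gene length the correlation was -0.265 over the 115 members and 0.0321 over all genes tested, and for the distance to the nearest other gene end it was -0.353 over the members. A window that holds the end of a neighbour can include the mark of that neighbour, as it could for 37 of the 122 genes with another gene end within 5 kb. Members above and at or below the median CpG ratio had median KO minus WT differences of 13.3 and -19.2 bp and median HxD minus WT differences of -81.0 and -160 bp.

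**Figure D5:**
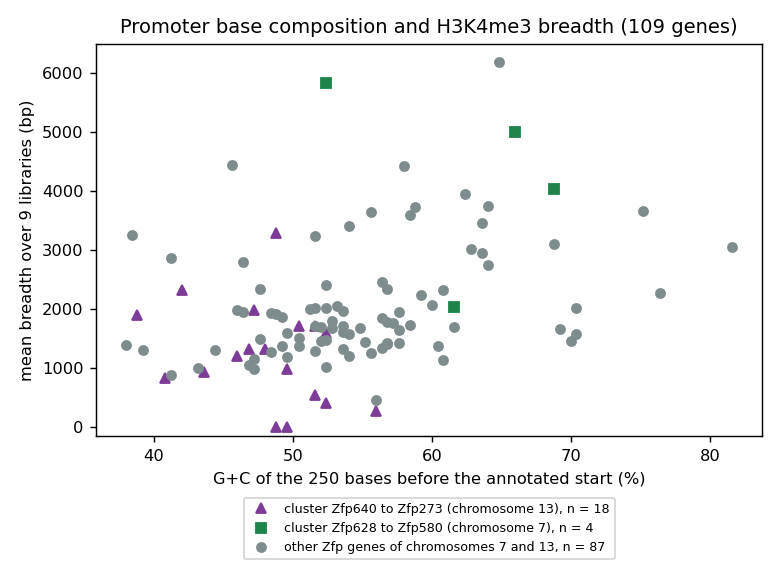
Mean breadth over the 9 libraries (bp) against the G+C of the 250 bases before the annotated start (%) for the 109 members with a sequence, with the chromosome 13 cluster as triangles, the cluster from Zfp628 to Zfp580 as squares and all others as circles. Breadth was taken at the marked end, which lay within 1 kb of the annotated start in 84 of the 109. It is larger on average at higher G+C, with wide scatter, and the 18 triangles lie at a median G+C of 48.8%.

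A list for the corepressor and the H3K9 pathway was also measured, and it includes the zinc finger genes Zfp57 and Zfp445. Of 24 symbols listed for the corepressor and the H3K9 pathway, 23 were in the gene table and 22 were tested, and 0 passed limma in any comparison. The KO minus WT difference was above 0 in 19 of the 22, with a median of 539 bp, against 53.3% and 45 bp over all genes. The 3 below 0 were Zfp57, Zfp445 and Uhrf1, at -288, -95.3 and -345 bp. The HxD minus WT difference was above 0 in 14, with a median of 253 bp, against 38.9% and -125 bp over all genes. With peak lists of equal length these counts were 20 and 19, against 67.6% and 60.3% of all genes, and with each library centred on its mean 18 and 18, against 50.6% and 51.8%. Marker lists moved in the same comparisons. In KO minus WT the median was 435 bp for germ cell markers, -574.5 bp for Sertoli, -985 bp for Leydig and interstitial and -542 bp for endothelial and blood markers, and in HxD minus WT it was 34.0, -488, -1459 and -527 bp. Their part in the corepressor values was not tested. The smallest p in KO against WT were at Setdb1, the H3K9 methyltransferase recruited by TRIM28, and Suv39h1, a methyltransferase of the same residue. Setdb1 had 976, 1033 and 1518 bp in KO, 1014, 921 and 864 bp in HxD and 0, 0 and 594 bp in WT libraries, and every mutant library lay above every WT library (limma adjusted p = 0.142 in KO and 0.314 in HxD). Suv39h1 had 1774, 1779 and 2109 bp in KO, 1475, 1743 and 445 bp in HxD and 293, 0 and 1545 bp in WT libraries, with an adjusted p of 0.195 in KO. The 115 zinc finger genes themselves had medians of -5 bp in KO and -110 bp in HxD.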

How the data were processed

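Per the labels, H3K4me3 CUT&RUN libraries were made from 9 samples in 3 genotypes. Per the submitters' processing notes the genome build was mm10 and the tools included Bowtie2 2.5.0, SAMtools 1.16.1, bedtools 2.27.1 and MACS2 2.1.0, with no role stated for any of them. Every library has its own narrow peak list, so the authors called peaks library by library. The deposited columns are a score, a fold enrichment (a linear ratio), and −log10 p and −log10 q values, with the smallest −log10 q at 2.00 to 2.02. Fold values only described summits and −log10 q values only ranked or filtered peaks.

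Covered bp per gene and library were computed from the peak positions in Python 3.11.15 (pandas 2.3.3, numpy 2.4.6). Breadth was compared over all 9 libraries by limma (version 3.58.1, R 4.3.3; lmFit, eBayes with trend, Benjamini-Hochberg adjustment over 15996 coding genes marked in at least 3 libraries, threshold 0.05, two-sided), checked on simulated data. Genes, starts and promoter sequences came from RefSeq tables of GRCm38.p6. The number of libraries limits the precision.

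The genes, lists, tests and alternatives were chosen with earlier results of these data known. Named genes were the 5 lower and 5 higher with the smallest p against WT in each mutant, the 2 in each direction between mutants, the 5 broadest and 5 narrowest, and members with a known role. Zfp235, Zfp59, Zfp790, Zfp934, Zfp759, Zfp595, Zfp626, Zfp541, Zfp787 and Zfp446 were named after their values were seen. Marker lists covered germ, Sertoli, Leydig and interstitial, and endothelial and blood cells. Alternatives were a −log10 q of at least 5, lists cut to the 49624 strongest peaks, a window of 2 kb, no filter, centring of each library, the annotated start, a replicate block, other cluster gaps and leaving out each library. Protein features were not analysed here.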

Additional observations from a re-analysis of the deposited data

How the results depend on the processing

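Leaving out 1 library at a time called 0 members in every comparison (range 0 to 0). The members with all KO libraries below WT numbered 3 to 20 and above WT 4 to 20, with a median difference of -170 to 163 bp. For HxD against WT these ranges were 15 to 32, 3 to 17 and -296 to -82.5 bp, and for KO against HxD 0 to 11, 10 to 29 and -5 to 351 bp. Groups of fewer libraries overlap less by construction. Of all genes, 9.08% to 16.1% lay all below and 8.49% to 23.7% all above in KO against WT. In HxD against WT these shares were 13.3% to 27.68% and 3.62% to 13.03%. For KO against HxD they were 0.706% to 4.54% and 7.19% to 29.03%.

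With lists of equal length, which shorten the WT lists most, 1 of 115 members lay lower and 15 higher in KO than in WT. Of all genes 5.16% lay lower and 14.9% higher, and the median of the members was 308 bp. In HxD 9 members lay lower and 12 higher, against 7.10% and 10.1% of all genes, with a median of 141 bp. Single genes turned: Zfp865 to 138 bp and Zfp141 to 244 bp in KO, and Zfp141 to 222 bp in HxD. Members marked averaged 108 in HxD and 93.0 in WT libraries, and the median breadth was 1548 bp in WT libraries. Cluster differences became -64.2 and 315 bp in KO (Zfp180 to Zfp526, Zfp628 to Zfp580) and, in HxD, 230 bp (Zfp553 to Zfp646), -107 bp (Zfp180 to Zfp526), 248 bp (Zfp84 to Zfp146), 181 bp (Zfp788 to Zfp819) and 755 bp (Zfp628 to Zfp580). With each library centred on its mean, Zfp575 was called narrower in KO (1 member, -1777 bp, limma adjusted p = 0.0126). In that setting 13 members lay lower in KO than in WT, against 11.9% of all genes. In HxD 7 lay higher than in WT, against 10.0% of all genes. Between KO and HxD 6 lay lower and 5 higher in KO, against 5.21% and 4.22% of all genes. Within 2 kb, Zfp553 turned to 185 bp in KO and the WT median breadth was 1506 bp. There 6 members lay higher in KO than in HxD, against 6.45% of all genes. At the annotated start Zfp771 turned to -171 bp in KO. There 6 of 106 members lay higher in KO than in HxD, against 7.33% of all genes. With a −log10 q of at least 5, 5 members lay higher in HxD than in WT, against 4.05% of all genes. In that setting 109 members in HxD and 109.3 in WT libraries were marked. Symbols with a letter after the digits raised the members marked to 119.7 in KO, 119.3 in HxD and 121.7 in WT libraries. The cause of these shifts was not tested.

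Over all genes, calls of narrower and broader in KO against WT numbered 1 and 0 as reported, 281 and 183 centred, 52 and 231 with equal lists, and 69 and 4 without the filter. In HxD against WT they numbered 0 and 0, 43 and 12, 1 and 3, and 56 and 2. With the replicate number as a block 0 members were called in any comparison, and 0 of all genes. Same-numbered libraries of different genotypes correlated at -0.236 to 0.0798, so the numbers were not taken to pair the libraries, and not every library correlated best with its own number. Read depth is unknown. Losses of 500 or 1000 bp at genes with broad marks were not recovered from simulated libraries, and gains and narrower genes were not simulated.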
